A study of Mus musculus with 281 samples.

Results

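The vacuolar H+-ATPase (V-ATPase) genes of the stria vascularis were described in single cells. The set holds 33 genes chosen by name and function, not by their values: 10 genes for the V0 subunits, 13 for the V1 subunits, the accessory subunits *Atp6ap1* and *Atp6ap2*, and 8 genes for factors that assemble or regulate the pump. All 33 were among the 47752 genes measured. Cells of the stria vascularis, the epithelium of the lateral cochlear wall that makes endolymph, had been picked singly with a glass micropipette and profiled with Smart-Seq2, which copies and amplifies the poly-adenylated RNA of each cell. The cells came from male 129S6 mice and were from *Slc26a4*+/+ mice aged P22 to P42 (52, 26, 75 and 19 cells of the 4 run dates that the profiles carry), with 40 from *Slc26a4*+/- mice aged P26 to P33 and 69 from *Slc26a4*-/- mice aged P24 to P44, where P is the postnatal day. *Slc26a4* encodes pendrin, which exchanges chloride for bicarbonate, and the 3 groups differ in its alleles only as far as the labels say. Several mice were pooled in each genotype and no cell was tied to a mouse. Each genotype in a cell type therefore counted as 1 sample, and no value below has a test.

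The V-ATPase pumps protons across membranes at the expense of ATP. Its V1 sector lies in the cytoplasm, where a ring of A and B subunits splits ATP and turns a rotor, and its V0 sector lies in the membrane, where the turning ring of c subunits carries protons past subunit a. Most cells run the pump in lysosomes, endosomes, the Golgi apparatus and secretory vesicles. Proton-secreting epithelial cells, such as the intercalated cells of the kidney and related cells of the endolymphatic sac, also place it in the plasma membrane, with the isoforms a4, d2, B1, C2 and G3. Loss of a4 or B1 in people causes renal tubular acidosis with hearing loss. Pigment cells, which the intermediate cells of the stria resemble, use the pump in melanosomes, organelles related to lysosomes.

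Cell types were rebuilt from the profiles, since the labels do not give them. Of the *Slc26a4*+/+ cells, 38 were like intermediate cells (IMC-like), 23 like spindle cells (SC-like), 17 like root cells (RC-like) and 14 like marginal cells (MC-like). The summed markers of each type, which also named the clusters, had their highest median in that type. The 10 IMC markers summed to a median of 45566.5 CPM (counts scaled to one common total per cell) in IMC-like cells. In the other named types it was 236.1 to 373.2 CPM. The 8 MC markers had a median of 57569.3 CPM in MC-like cells and of 210.2 to 3682 CPM in the others. For the SC markers the medians were 44341 CPM against 684.3 to 1335 CPM, and for the RC markers 14153 CPM against 69.8 to 784 CPM. Not every marker followed, since *Tyrp1* and *Pmel* were at 0 and 0.572 CPM in IMC-like cells. *Lgr6*, an RC marker, was at 0.897 CPM in RC-like and 12.1 CPM in SC-like cells. A cluster of 11 *Slc26a4*+/+ cells whose leading genes were *Crhbp*, *Slc26a7* and *Vmo1* stayed unnamed, since its markers were split between types. A further cluster of 69 *Slc26a4*+/+ cells was led by the blood cell genes *Slc4a1*, *Fcnb* and *Camp*, although its markers were mostly those of IMCs. It was shallower, with a median of 783581.5 counts per cell over all genotypes against 1831846 in IMC-like cells, and it is given beside the named types only. Depth ran from 1848 to 7932729 estimated counts per cell with a median of 1312950, and 20 *Slc26a4*+/+ cells held under 100000 counts. Each profile also carries a collection number, and the 4 run dates are called batches 1 to 4. Cells of 1 genotype, age, collection number and run date are called a collection set here (37 in all), and the spread over sets is given as the standard deviation (SD). Intervals cover counting error only, since the reads have no molecular identifiers.

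Most of the pump genes were expressed throughout the stria. A mean of 10 CPM or more was reached by 28 of the 33 genes in at least 1 named type, as it was by 11384 of all genes, and by 24 of these 28 in all 4 named types (50.6% of the 11384 genes were). The 5 genes that reached it in no named type were *Atp6v0a4*, *Atp6v0d2*, *Atp6v1b1*, *Atp6v1c2* and *Atp6v1e2*. They are the isoforms a4, d2, B1, C2 and E2, the first 4 of which are those of proton-secreting epithelia and the last that of the testis. The 4 genes that passed in only some types were *Atp6v0e2*, *Atp6v1g2*, *Atp6v1g3* and *Ncoa7*. The map of mean CPM by gene and cluster shows this division, with these 5 isoforms at or under 7.0 CPM in each named type. Outside the named types, *Atp6v1c2* was higher in the *Crhbp* cluster, through 2 of its 11 cells.

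**Figure D1:**
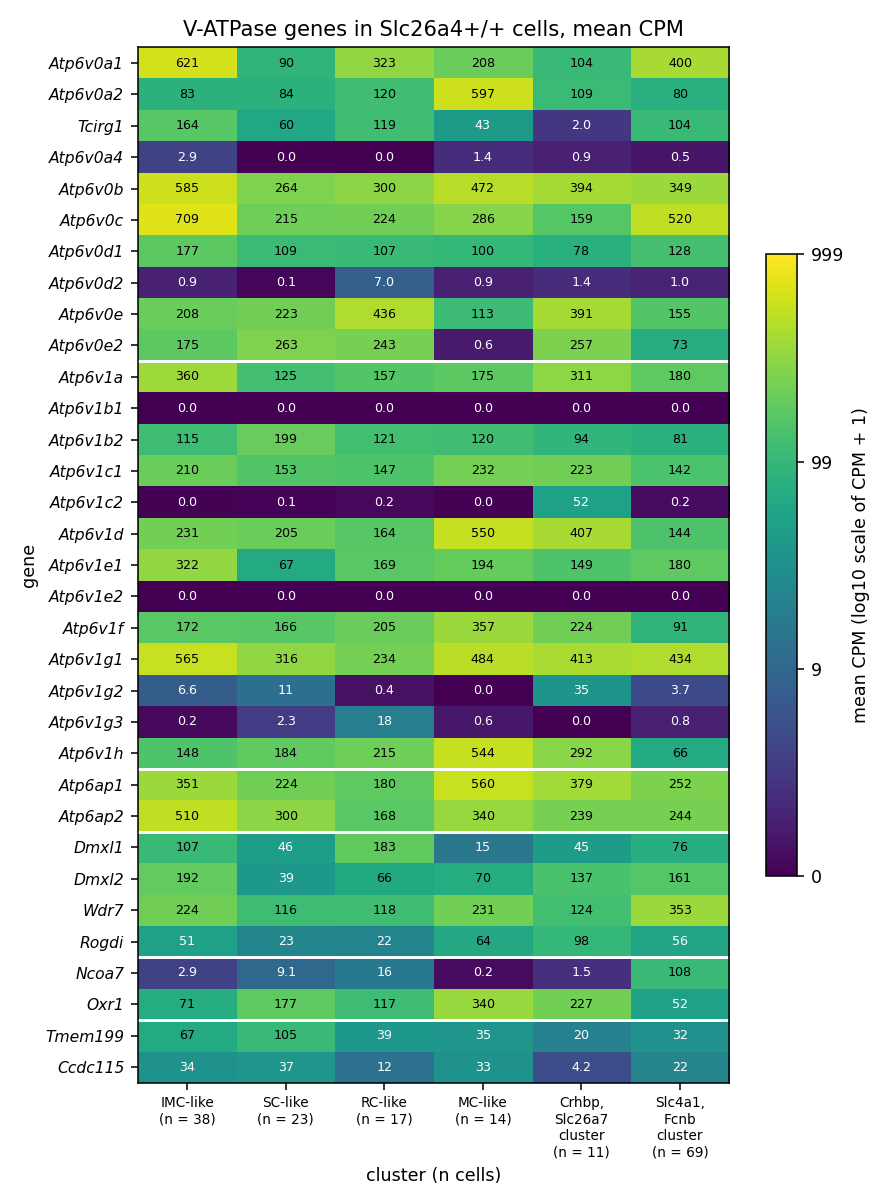
Mean level of the 33 V-ATPase genes (vertical axis) in 6 clusters of *Slc26a4*+/+ cells (horizontal axis, number of cells under each name). The number in each cell is the mean CPM over cells and the colour shows it on a log10 scale of CPM + 1. White lines divide V0 subunits, V1 subunits, accessory subunits, *Dmxl1* to *Rogdi* (the V1-V0 assembly complex), the TLDc proteins *Ncoa7* and *Oxr1*, and the assembly factors *Tmem199* and *Ccdc115*. *Atp6v0b*, *Atp6v0c* and *Atp6v1g1* lie between 158.9 and 709 CPM in every column, and *Atp6v1b1* and *Atp6v1e2* are at 0.0 in every column.

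Among the named types, summed pump mRNA was highest in IMC-like cells. The TPM (transcripts scaled to the same total, which is per length and so allows genes to be added) of the 23 subunit genes was summed in each *Slc26a4*+/+ cell. It had a lowest value, median and highest value of 4277, 6376 and 8746 TPM in IMC-like cells, with a mean of 6412 (SD over 15 sets, 1194). In SC-like cells the values were 1099, 3317 and 6791 TPM with a mean of 3580 (SD over 12 sets, 1640). RC-like cells ran from 1231 through 3946 to 9821 TPM with a mean of 4163 (SD over 12 sets, 1245). MC-like cells ran from 1856 through 4438 to 13496.5 TPM with a mean of 4660 (SD over 8 sets, 1504). The shallow cluster of 69 cells, mostly with IMC markers, did not share the IMC-like level. It ran from 82.2 through 3630 to 11679 TPM with a mean of 3766 (SD over 16 sets, 2443). Cells of the types overlapped, but no IMC-like *Slc26a4*+/+ cell was under 4277 TPM, a level near the median of MC-like cells. Within collection sets that held both types, the mean of IMC-like cells was higher in 9 of 10 sets against SC-like cells (log2 ratio 0.84), in 8 of 8 against RC-like cells (0.62) and in 5 of 5 against MC-like cells (0.46). The differences among SC-, RC- and MC-like cells were smaller than the SD over sets. Among *Slc26a4*+/+ cells of the named types, IMC-like cells had the highest mean in each of the 4 batches. Batch 4 held no MC-like *Slc26a4*+/+ cell. In batch 3, for example, the IMC-like mean was 6292 TPM against 4075 (MC-like), 3812 (SC-like) and 2964 (RC-like). The lead did not hold for *Slc26a4*-/- cells of batch 2, where 2 MC-like cells had a mean of 5356 TPM and 16 IMC-like cells one of 4868 TPM. IMC-like cells were also the deepest named type, with a median over all genotypes of 1831846 counts. The others had 1342834 (SC-like), 1458665 (RC-like) and 1624722 (MC-like). The part of depth in the order was not tested.

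**Figure D2:**
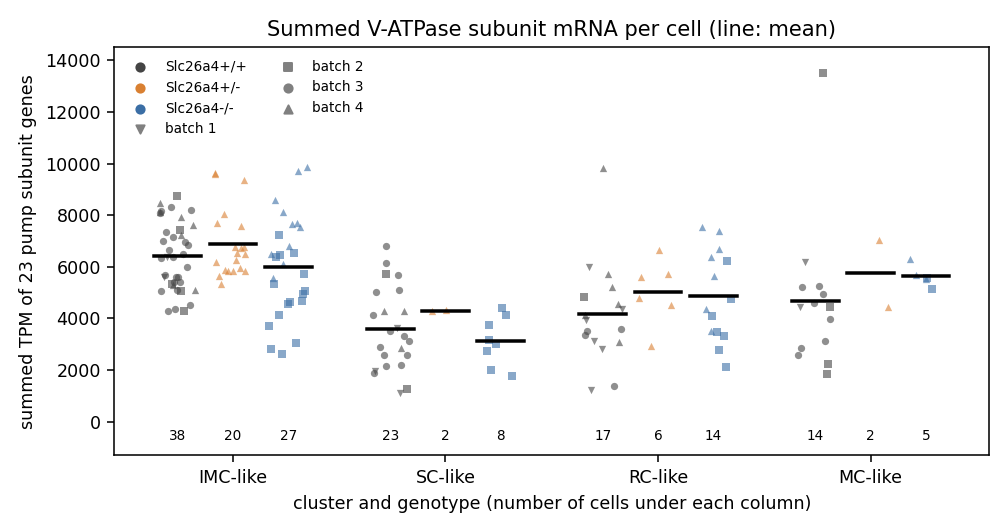
Summed TPM of the 23 V-ATPase subunit genes (vertical axis) in each cell by named cluster and genotype (horizontal axis), with the number of cells under each column. Each point is a cell, colours mark the genotype, shapes the batch and lines the mean. The 38 IMC-like *Slc26a4*+/+ cells lie between 4277 and 8746 TPM, and the other *Slc26a4*+/+ types reach down to between 1099 and 1856 TPM. The lowest *Slc26a4*-/- IMC-like cells are squares, of batch 2.

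Single genes divided the types further. Of the 28 expressed genes, 10 were highest in IMC-like cells (24.4% of all expressed genes were), 9 in MC-like cells (19.8%), 5 in SC-like cells (26.7%) and 4 in RC-like cells (29.1%). At 2-fold or more above the next type stood 3 genes in IMC-like cells, namely *Atp6v0c*, *Atp6v1a* and *Dmxl2* (background 8.02%), and 3 in MC-like cells, namely *Atp6v0a2*, *Atp6v1d* and *Atp6v1h* (background 6.16%). The same was seen for 1 gene, *Atp6v1g3*, in RC-like cells (background 11.6%) and for 0 in SC-like cells (background 8.48%). With so few genes, a difference of 1 or 2 genes from the background share is not a result about the pump. When the highest cell of each gene was left out in each type, a setting chosen after seeing the data, IMC-like cells had 5 such genes (*Atp6v0a1*, *Tcirg1*, *Atp6v0c*, *Atp6v1a* and *Dmxl2*, background 15%), MC-like cells had 2 (*Atp6v0a2* and *Atp6v1h*, background 4.82%) and RC-like cells had 0 (background 7.81%), as did SC-like cells (background 8.72%). Single cells of very high level therefore set part of this order, and the values by cell are given for each gene below.

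Among the V0 genes, subunit a had a different leading isoform in different types. Subunit a holds the path by which protons leave the ring, and its isoform goes with where the pump resides: a1 is known from synaptic vesicles, a2 from the Golgi and endosomes, a3 (*Tcirg1*) from lysosomes and the ruffled border of osteoclasts, and a4 from the plasma membrane of intercalated cells. *Atp6v0a1* (chr11:101009452-101063719, plus strand, GRCm38) had a lowest, median and highest value of 0, 560 and 1706 CPM in IMC-like cells, with a mean of 621 (SD over 15 sets, 258.8). Its mean was 89.6 CPM in SC-like cells (0 to 499.5, median 3.62), 323 CPM in RC-like cells (0 to 2920, median 6.03) and 208.01 CPM in MC-like cells (0 to 661, median 172.6). Most IMC-like cells were thus above most cells of the other types, and the RC-like mean rested on a few cells, as its median shows. IMC-like cells were higher than SC-like cells in 9 of 10 shared sets (log2 ratio of means 2.78), than MC-like cells in 5 of 5 (1.57) and than RC-like cells in 7 of 8 (0.94, or 1.77 without the highest cell of each type). Over whole batches IMC-like cells were above RC-like cells in 2 of 4.

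*Atp6v0a2* (chr5:124628576-124724455, plus strand) was highest in MC-like cells. It ran from 0 through 475 to 2197 CPM there, with a mean of 597 CPM (SD over 8 sets, 336.1). The means were 83.1 CPM in IMC-like, 83.8 CPM in SC-like and 120 CPM in RC-like cells, where the highest cells had 381, 469.4 and 595.1 CPM. The mean of MC-like cells therefore lay at or above the highest cell of each other type, although 2 of the 14 MC-like cells had no count. The log2 ratio of MC-like cells to RC-like cells, the next type, was 2.31, and 2.38 without the highest cells. It was 1.68 to 2.94 when a batch was left out, and 2.05 over the cells of all genotypes.

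*Tcirg1* (chr19:3896050-3907133, minus strand) had means of 164.3 CPM in IMC-like cells (0 to 585.9, median 68.3), 118.9 CPM in RC-like cells (0 to 1520, median 1.06), 60.3 CPM in SC-like cells (0 to 430.4, median 0) and 42.6 CPM in MC-like cells (0 to 313.9, median 0.374). It was found in 35 of 38 IMC-like cells (92.1%, exact binomial 95% interval 78.6% to 98.3%) and in 11 of 23 SC-like cells (47.8%, 26.8% to 69.4%). The shares when each cell was thinned to 100000 counts were 73.7% and 28.6%. The order of IMC-like over RC-like cells was not stable, since the log2 ratio of 0.46 became -0.18 without batch 1. It became 1.79 without the highest cell of each type, as a single RC-like cell of 1520 CPM carried the RC-like mean.

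As shares of the TPM of all 4 a genes, a1 made 65.1% in IMC-like cells (SD over sets 22.6), and a2 made 57.7% in MC-like cells (SD 28.6). The remaining share of IMC-like cells was mostly a3 with 27.4%, against 6.67% for a2. SC-like cells had nearly equal parts of a1 (35.1%), a3 (33%) and a2 (31.9%), and RC-like cells had 43.4% a1, 41.3% a3 and 15.3% a2. The a3 share of RC-like cells came mostly from a single cell of 2266 TPM, and its median over sets was 1.42%. Cell by cell, a1 was the highest of the 4 in 30 of 38 IMC-like cells, a3 in the other 8 and a2 in 0. In MC-like cells a1 led in 7 of 14 cells and a2 in 6, so the larger share of a2 came from its level in the cells that had it. The cluster led by *Crhbp* had 60.8% a2 and 34.6% a1 over all its cells. Its medians over sets had the other order, with 15.6% for a2 and 82.3% for a1. In its 11 cells a1 led in 5 and a2 in 4. The plot of a isoforms by cell shows these mixtures, with many cells at 0 for an isoform that other cells of the type hold.

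**Figure D3:**
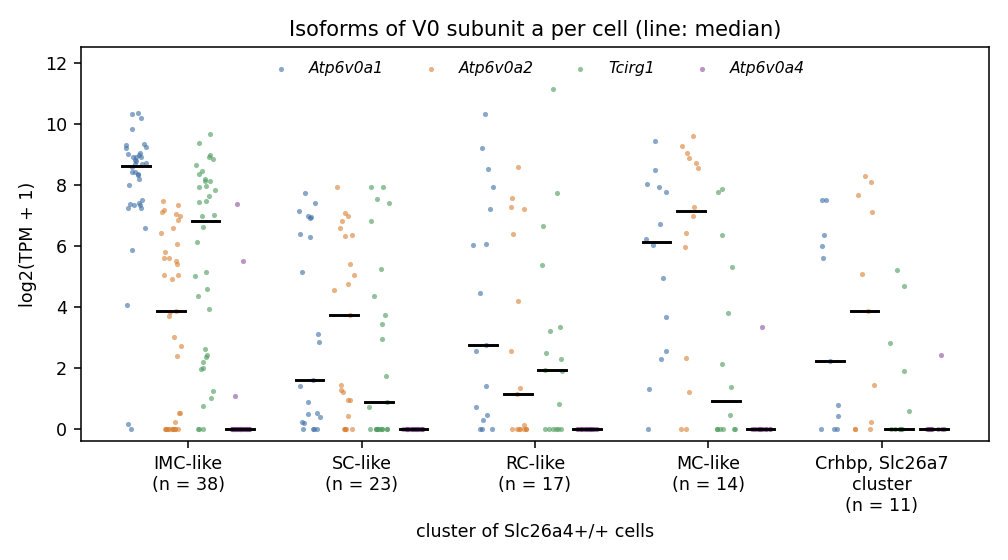
Level of the 4 isoforms of V0 subunit a in single *Slc26a4*+/+ cells, as log2(TPM + 1) (vertical axis), by cluster (horizontal axis, number of cells under each name). Each point is a cell, colours mark the gene and black lines the median. *Atp6v0a1* has the highest median in IMC-like cells and *Atp6v0a2* in MC-like cells, and *Atp6v0a4* has a median of 0 in all 5 clusters.

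In IMC-like cells the TPM of *Atp6v0a1* was spread over several transcripts. ENSMUST00000151554.1, of 828 bases, held 31.3% of it, ENSMUST00000092663.3, of 3813 bases, 29.4% and ENSMUST00000103110.9, of 2716 bases, 26.98%. The last 2 were at 1 TPM or more in 33 of 38 cells each, and the short transcript in 17. The division of reads among transcripts that share exons is an estimate, and it bears on the TPM shares above, since TPM weights a short transcript more.

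The ring subunits were the most abundant of the V0 genes in IMC-like cells per length, with 1210 TPM for *Atp6v0b* and 1056 TPM for *Atp6v0c*. *Atp6v0c* (chr17:24163866-24169702, minus strand), subunit c, ran from 92.9 through 719 to 1298 CPM there with a mean of 709 CPM (SD over 15 sets, 174.04), and each of the 38 cells had it. The means were 214.9 CPM in SC-like cells (SD 125.9), 224.02 CPM in RC-like cells (SD 177.6) and 285.8 CPM in MC-like cells (SD 166.3). The IMC-like mean was above the next type in 5 of 5 shared sets and in each of the 3 batches that held both, with a log2 ratio of 1.31 that stayed between 1.12 and 1.46 when a batch was left out. This difference was larger than the SD over sets. *Atp6v0b*, the relative of c in the ring, had means of 585 CPM in IMC-like, 472 CPM in MC-like, 300.1 CPM in RC-like and 264.01 CPM in SC-like cells, and the first 2 of these did not differ beyond the spread (IMC-like cells were higher in 2 of 5 shared sets). The stalk subunit d1, *Atp6v0d1*, had means of 99.7 to 176.8 CPM in the 4 types.

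Subunit e, a small membrane subunit of unsettled function, has the isoforms *Atp6v0e* and *Atp6v0e2*. *Atp6v0e* was highest in RC-like cells, from 0 through 279.2 to 2794 CPM with a mean of 436 CPM, against 223.3 CPM in SC-like, 207.6 CPM in IMC-like and 112.9 CPM in MC-like cells. Without the highest cells the RC-like mean was 288.4 CPM and the log2 ratio to the next type 0.49. *Atp6v0e2* (chr6:48537615-48541801, plus strand) was near 0 in MC-like cells of *Slc26a4*+/+ mice. These 14 cells ran from 0 through 0 to 5.06 CPM with a mean of 0.630, which stands for 11 counts in 5 cells. In the other types the mean was 262.7 CPM (SC-like), 242.8 CPM (RC-like) and 175.2 CPM (IMC-like), and in the *Crhbp* cluster it was 256.9 CPM with no cell under 79.1 CPM.

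Among *Slc26a4*+/+ cells, those of the *Crhbp* cluster and the MC-like cells did not overlap for *Atp6v0e2*. With each cell thinned to 100000 counts, it was found in 7.14% of MC-like cells and in 65.8% of IMC-like, 71.4% of SC-like, 62.5% of RC-like and 100% of *Crhbp*-cluster cells. The log2 ratio of SC-like to MC-like means was 7.34 with a pseudocount of 1 CPM, which understates the difference of a gene so close to 0. Sets holding both types were few. SC-like cells were higher in 4 of 5 and MC-like cells in 0, and IMC-like cells were higher in 4 of 5, but RC- and MC-like cells were each higher in 2 of 4. As a share of subunit e TPM, *Atp6v0e2* made 0.354% in MC-like *Slc26a4*+/+ cells and 18.01% to 28.8% in the other named types. SC- and RC-like cells, with medians of 113.3 and 37.9 CPM and highest cells of 837.3 and 1489 CPM, did not differ beyond their spread.

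MC-like cells of *Slc26a4*-/- mice held *Atp6v0e2*, in a comparison chosen after seeing the data. The 5 cells, of 4 collection sets, had 108.04, 112.3, 148.2, 266.8 and 424.05 CPM (mean 211.9), and the 2 MC-like cells of *Slc26a4*+/- mice had 0.445 and 0.524 CPM, which is 1 count in each. Each *Slc26a4*-/- cell was thus above the highest *Slc26a4*+/+ cell (5.06 CPM), and the log2 ratio of the means was 7.03. Within batch 2 the 2 *Slc26a4*-/- cells were at 266.8 and 424.05 CPM and the 4 *Slc26a4*+/+ cells at 0 to 1.93 CPM. Batch 4 held the other 3 *Slc26a4*-/- cells and both *Slc26a4*+/- cells, and no *Slc26a4*+/+ cell of this type. Of the 26 pump genes with 10 CPM or more in either genotype, *Atp6v0e2* was the one for which every *Slc26a4*-/- cell stood above every *Slc26a4*+/+ cell, as was so for 0.0995% of all genes. At 2-fold or more, 4 pump genes were higher (26.1% of all genes were) and 5 lower (26.4%), so the other members did not stand out from the background. The summed MC markers were 32200 to 45543 CPM in the *Slc26a4*-/- and 26461 to 69983 CPM in the *Slc26a4*+/+ cells, and the IMC markers 167.3 to 3863 CPM against 42.3 to 1573 CPM. The part of these markers in the result was not tested, and with 5 cells and no tie to a mouse the difference has no replicate check.

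Among the V1 genes, A, E1 and G1 had their highest mean in IMC-like cells and C1, D, F and H in MC-like cells. For C1, D and F this lead came through a single cell. *Atp6v1a*, the ATP-splitting subunit, averaged 360 CPM in IMC-like cells (0 to 1382, median 304), 175.5 CPM in MC-like cells (0.374 to 693.2, median 80.9), 156.7 CPM in RC-like and 125.3 CPM in SC-like cells. The log2 ratio to the next type, 1.03, was just past 2-fold and was under it in several other settings (0.55 without batch 3, 0.60 over all genotypes and 0.58 in TPM). *Atp6v1b2*, the other subunit of the ATPase ring, had means of 114.7 to 199.02 CPM and the highest of them in SC-like cells. Its B1 counterpart was not found in the named *Slc26a4*+/+ cells, so B2 made 100% of subunit B TPM in every type.

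*Atp6v1e1*, a stalk subunit, had means of 322.4 CPM in IMC-like cells (0 to 879.3, median 328), 193.6 CPM in MC-like, 168.5 CPM in RC-like and 67.5 CPM in SC-like cells. It was higher in IMC-like than in MC-like cells in 5 of 5 shared sets. *Atp6v1g1*, the common stalk subunit G, ran from 143.95 through 454 to 1203 CPM in IMC-like cells with a mean of 565 CPM, against 484 CPM in MC-like and 316 CPM in SC-like cells, with the lowest mean in RC-like cells. The IMC-like and MC-like means of *Atp6v1g1* did not differ beyond the SD over sets (163.9 and 346.2). *Atp6v1c1*, which clamps V1 to V0, had its lowest mean in RC-like cells (146.9 CPM) and no type 2-fold above another, and *Atp6v1f*, in the rotor, had means of 165.6 to 357 CPM. Both were highest in MC-like cells. Without the highest cells, *Atp6v1c1* was highest in IMC-like cells (196.6 CPM, MC-like 159.6 CPM). *Atp6v1f* was then highest in RC-like cells (185.1 CPM, MC-like 158.7 CPM).

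*Atp6v1d*, the central rotor shaft, averaged 550 CPM in MC-like cells, but its cells ran from 11.4 through 247.6 to 4287 CPM. The medians of IMC-like (210 CPM) and SC-like cells (172.1 CPM) were near that of MC-like cells. Without the highest cells the MC-like mean was 262.8 CPM and the log2 ratio to the next type 0.27 instead of 1.25, and without batch 2 it was 0.26. The lead of MC-like cells for *Atp6v1d* was therefore set by a single cell.

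*Atp6v1h* (chr1:5070018-5162529, plus strand), which brakes the ATPase when V1 comes off the membrane, ran from 0 through 279.4 to 3204 CPM in MC-like cells with a mean of 544 CPM (SD over 8 sets, 381.5). The other means were 214.8 CPM in RC-like cells (0 to 1202, median 61.4), 184.05 CPM in SC-like cells (0 to 570.3, median 88.98) and 148.02 CPM in IMC-like cells (0 to 705.4, median 60.5). MC-like cells were above RC-like cells in 4 of 4 shared sets, with a log2 ratio of 1.34 (1.02 without the highest cells, 0.72 without batch 2). Its transcripts differ by a coding exon of 54 bases, exon 7 of 14, at chr1:5101070-5101123. The exon is shown since the share of transcripts that skip it was measured in each type. It stands in capitals between 15 bases of each neighbouring exon, as read from the GRCm38 annotation on the plus strand:

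Atp6v1h exon 7: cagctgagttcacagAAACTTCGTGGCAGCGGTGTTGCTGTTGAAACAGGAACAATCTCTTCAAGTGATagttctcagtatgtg

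Transcripts with this exon made most of the *Atp6v1h* TPM in each named type. Transcripts without it made 37.2% in MC-like, 7.44% in IMC-like, 5.01% in RC-like and 0.0563% in SC-like *Slc26a4*+/+ cells. The MC-like share came from a single cell of 1492 TPM without the exon. With that cell left out it was 7.26%, and in *Slc26a4*-/- MC-like cells it was 0.974%. Single cells went the other way elsewhere too. In 4 of the 17 RC-like *Slc26a4*+/+ cells, at any level, transcripts without the exon were the larger part. Both kinds of transcript together reached 1 TPM or more in 13 of the 17. In *Slc26a4*-/- cells of the shallow cluster these transcripts made 20.96%, and 2.86% when the highest cell (1696 TPM) was left out.

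The plasma-membrane isoforms were scarce in all stria cells. Added together, a4, d2, B1, C2 and G3 made 0.322% of the TPM of subunits a, d, B, C and G in IMC-like cells, against 0.181% (SC-like), 1.52% (RC-like) and 0.122% (MC-like) (SD over sets 0.629, 0.903, 5.69 and 0.103). The share in the *Crhbp* cluster was 4.84%. *Atp6v1b1* was found in 2 cells of any genotype with 22 counts, of which 21 stood in an RC-like *Slc26a4*-/- cell (7.14 CPM). In IMC-like *Slc26a4*+/+ cells it had 0 counts in 38 cells, which allows a share of cells with a count, not of cells that express it, of up to 7.895% and a level of 0.0454 CPM (3 counts over the group). *Atp6v0a4* was found in 6 cells, with 71.5% of its counts in 2 of them, and in none of the 23 SC-like or 17 RC-like cells. Its highest level was 94.3 CPM, in an IMC-like cell.

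*Atp6v0d2*, known from osteoclasts and from the kidney, was found in 55 cells but with 451 counts in all, and had its highest mean in RC-like cells (7.0 CPM, highest cell 78.6). *Atp6v1c2* was found in 15 cells with 2491 counts, and 78.2% of these stood in 2 cells of the *Crhbp* cluster, a *Slc26a4*-/- cell of 255.5 CPM and a *Slc26a4*+/+ cell that held 775 of them. Among the *Crhbp*-cluster cells of *Slc26a4*+/+ mice, 2 of 11 had it (18.2%, exact interval 2.28% to 51.8%). In these 11 cells it made 26.4% of subunit C TPM, where the named types had at most 0.179%. *Atp6v1g3* had 1311 counts in 27 cells, 1066 of them in a single RC-like cell of 312 CPM. Its mean of 18.5 CPM in RC-like cells rested on that cell, and without it SC-like cells were higher (log2 ratio of RC-like cells to the next type -0.48, and -0.72 without batch 1).

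*Atp6v1e2* had 0 counts in every cell of the study. *Atp6v1g2*, the isoform G2 of brain, had means of 11.4 CPM in SC-like cells and 6.63 CPM in IMC-like cells, was at 0.368 CPM in RC-like and at 0 in MC-like cells, and reached 35.1 CPM in the *Crhbp* cluster, where 3 of 11 cells had it. None of these low isoforms was a general feature of a named type, since the median over cells was 0 for each of them in all 4 types.

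The accessory subunits were both abundant. *Atp6ap1*, which helps to assemble V0, had means of 560 CPM in MC-like cells (0.374 to 1436, median 472), 351 CPM in IMC-like cells (0 to 2366, median 265.7), 223.9 CPM in SC-like and 180 CPM in RC-like cells. *Atp6ap2*, also known as the prorenin receptor, had means of 510 CPM in IMC-like cells (0.385 to 1506, median 452), 340 CPM in MC-like, 300.1 CPM in SC-like and 168.2 CPM in RC-like cells. The order of IMC- and MC-like cells differed between these genes, and neither difference was larger than 2-fold.

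The mRNAs of the large subunits of the complex that joins V1 to V0, made by *Dmxl1* or *Dmxl2* with *Wdr7* and *Rogdi*, differed in level between types. *Dmxl2*, known from synaptic vesicles and from deafness in people, ran from 0 through 112.3 to 1064 CPM in IMC-like cells with a mean of 191.6 CPM (SD over 15 sets, 132.1). It had means of 70.1 CPM in MC-like cells (0 to 407.8, median 11.96), 66.2 CPM in RC-like and 39.3 CPM in SC-like cells. IMC-like cells were above MC-like cells in 5 of 5 shared sets, with a log2 ratio of 1.44, but of 0.09 without batch 3. *Dmxl1*, its relative, was highest in RC-like cells (mean 182.7 CPM, from 0 through 74.5 to 1285) and lowest in MC-like cells (14.99 CPM, highest cell 85.1), with 106.6 CPM in IMC-like and 46.1 CPM in SC-like cells. RC-like cells were above IMC-like cells in 4 of 8 shared sets only, with a log2 ratio of 0.77 that was 0.32 without the highest cells and 0.09 without batch 4.

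*Wdr7* had nearly the same mean in MC-like (231.2 CPM) and IMC-like cells (223.8 CPM), with 117.7 CPM in RC-like and 116.1 CPM in SC-like cells. *Rogdi* was low, at 64.2 CPM in MC-like, 50.9 CPM in IMC-like, 22.8 CPM in SC-like and 21.7 CPM in RC-like cells, and was found in 34.8% to 58.8% of the cells of a type. The assembly factors of the endoplasmic reticulum, *Tmem199* and *Ccdc115*, had means of 35.4 to 105.2 CPM and of 12.3 to 36.9 CPM, both with their highest mean in SC-like cells. For *Rogdi*, *Tmem199* and *Ccdc115*, the spread over cells was wider than any difference between types.

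The TLDc proteins *Oxr1* and *Ncoa7* bind V1 and promote its release from V0. *Ncoa7* was at or under 15.5 CPM in each named type, and 3201 of its 6389 counts stood in a single cell of the shallow cluster (7136 CPM). *Oxr1* (chr15:41447482-41861048, plus strand) had means of 340 CPM in MC-like cells (0 to 1282, median 283.8), 176.96 CPM in SC-like cells (0 to 662.5, median 152.9), 116.6 CPM in RC-like cells (0 to 458.4, median 49.8) and 70.6 CPM in IMC-like cells (0 to 393, median 28.4). IMC-like cells were lower than SC-like cells in 9 of 10 shared sets (log2 ratio -1.31) and lower than MC-like cells in 4 of 5 (-2.25). MC- and SC-like cells did not differ in a steady way, with MC-like cells higher in 2 of 5 sets.

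The types also differed in which *Oxr1* transcript they held. ENSMUST00000090096.10, of 4515 bases, made 78.5% of the *Oxr1* TPM in MC-like cells, with a mean of 85.8 TPM and 1 TPM or more in 10 of 14 cells. In IMC-like cells the same transcript had a mean of 0.0317 TPM and was at 1 TPM or more in 1 of 38 cells. There, ENSMUST00000166917.1, of 2509 bases, made 63.6% (mean 21.4 TPM, at 1 TPM or more in 13 of 38 cells) and ENSMUST00000170127.7, of 4251 bases, a further 28.1%. The short transcript made 2.45% in MC-like cells, in 1 of 14 cells, and 3.07% in SC-like cells, where the transcript of 4515 bases made 38.5%. The shallow cluster, whose cells mostly carried IMC markers, had 39.3% of the short transcript and 0.546% of the 4515-base transcript. Its short transcript was at 1 TPM or more in 6 of 69 cells. The *Crhbp* cluster held both, at 38.97% and 37.0%, but most of its short transcript stood in a single cell of 288.1 TPM (mean over the 11 cells, 32.96 TPM). The short transcript was at 1 TPM or more in a minority of IMC-like cells, so its share rests on 13 cells.

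**Figure D4:**
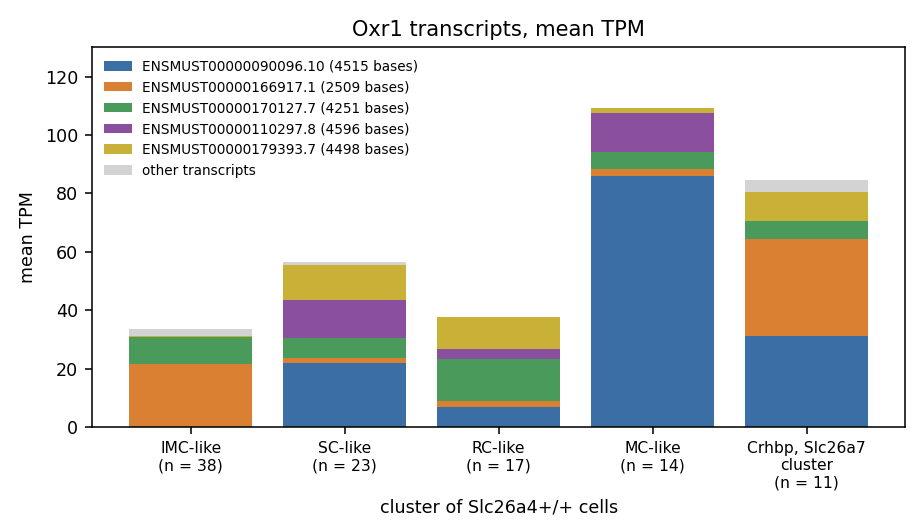
Mean TPM of *Oxr1* transcripts (vertical axis, bars from 0) in 5 clusters of *Slc26a4*+/+ cells (horizontal axis, number of cells under each name). Colours mark the 5 transcripts of highest level with their lengths, and grey the rest. The bar of MC-like cells is mostly the transcript of 4515 bases (85.8 TPM), which is at 0.0317 TPM in IMC-like cells, where the transcript of 2509 bases makes most of the bar (21.4 TPM).

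Promoters of the pump genes were searched for the letters CACGTG, the core of sites that bind the MITF and TFE family, which is known to act on lysosomal and pigment genes. RefSeq promoter sequences on GRCm38.p6, from 250 bases before to 50 bases after a start site, were matched for 24 of the 33 genes, with 30 promoters. The motif CACGTG, which reads the same on both strands, stood in 5 of the 30 (16.7%), against 7.15% of all 32851 promoters. The longer form TCACGTG, searched on both strands, stood in the same 5 (3.77% of all promoters), and TCACGTGA in 3, those of *Atp6v0d1*, *Atp6v0e* and *Atp6v1a* (0.974% of all). CATGTG, a related letter string, stood in 2 (14.2% of all), those of *Atp6v0c* and *Ncoa7*. These strings overlap by design, since the longer ones contain CACGTG. The matches are shown with 12 bases on each side, on the strand of the gene, with the motif in capitals, because the genes with it include subunits of both sectors and an assembly factor:

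Atp6v0b, chr4:117887330-117887359, minus strand: gggtcggcgcatCACGTGcgccggtcaggt
Atp6v0b, chr4:117887348-117887377, minus strand: gtgcgcgggggtCACGTGgggtcggcgcat
Atp6v0d1, chr8:105566050-105566079, minus strand: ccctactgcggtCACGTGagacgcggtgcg
Atp6v0e, chr17:26676387-26676416, plus strand: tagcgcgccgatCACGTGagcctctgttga
Atp6v1a, chr16:44139373-44139402, minus strand: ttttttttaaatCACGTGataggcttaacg
Ccdc115, chr1:34439696-34439725, minus strand: gatttgggatgtCACGTGgtctaagaccgt

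Relative to the start site, the motif began at position -18 and -36 in *Atp6v0b*, -3 in *Atp6v0d1*, 4 in *Atp6v0e*, -131 in *Atp6v1a* and -41 in *Ccdc115*. The 5 genes did not share a cell type of highest level: *Atp6v0b*, *Atp6v0d1* and *Atp6v1a* were highest in IMC-like cells, *Atp6v0e* in RC-like and *Ccdc115* in SC-like cells. Of the factors of this family, *Mitf*, itself among the IMC markers that named the clusters, averaged 834 CPM in IMC-like and 24.8 to 69.6 CPM in the other named types, while *Tfe3* was highest in MC-like cells (184.9 CPM) and *Tfeb* in SC-like cells (81.9 CPM). A match of letters is a description of the sequence and was not tested as a binding site.

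Genotypes were compared in IMC-like cells and in the SC- and RC-like cells together, called pendrin cells since both express *Slc26a4*. *Slc26a4* itself had means of 944 CPM in *Slc26a4*+/+, 554 CPM in *Slc26a4*+/- and 793 CPM in *Slc26a4*-/- pendrin cells, with medians of 513, 100.5 and 45.7 CPM, and of at most 1.87 CPM in IMC-like cells of any genotype. A count for the whole gene does not check a deleted part. In *Slc26a4*-/- mice the make-up of the pendrin cells differed from *Slc26a4*+/+ (8 SC-like and 14 RC-like cells against 23 and 17). The summed SC markers had a median of 2903 CPM against 18410 CPM, and the summed RC markers of 18033 CPM against 1440 CPM. The summed IMC markers of IMC-like cells had medians of 74121 CPM (*Slc26a4*-/-) and 45566.5 CPM (*Slc26a4*+/+), with a range of 30957.6 to 119183 against 9627 to 84390. The part of these shifts in the values below was not tested.

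In IMC-like cells the pump genes of *Slc26a4*-/- mice were near those of *Slc26a4*+/+ mice. The log2 ratios of 27 *Slc26a4*-/- to 38 *Slc26a4*+/+ cells over the 25 genes with 10 CPM or more in either genotype had a median of -0.14, against -0.11 over all genes, and ran from -1.31 to 1.19. At 2-fold or more, 1 gene was higher (13% of all genes were) and 1 lower (17.4%). Both shares are under the background, as were 1 and 2 genes without the highest cell of each gene (13.3% and 18.1%). The sign was the same within batches 2 and 4 for 18 of 25 genes, against 54.9% of all genes, and 2-fold or more higher in both for 1 (11.4% of all genes were) and lower in both for 0 (5.93%). The summed pump TPM was 6004 in *Slc26a4*-/- and 6412 in *Slc26a4*+/+ IMC-like cells, but 4868 against 6165 in batch 2 and 7656 against 7118 in batch 4. The median depth went the same way, with 1101947.5 counts in *Slc26a4*-/- against 2426146 in *Slc26a4*+/+ cells of batch 2 and 4072682 against 1831846 in batch 4. The part of depth in the result was not tested.

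*Atp6v1b2*, subunit B2, was the gene that was higher. It ran from 0 through 194.2 to 1126 CPM in *Slc26a4*-/- IMC-like cells (mean 263.9) and from 0 through 26.1 to 498.4 CPM in *Slc26a4*+/+ cells (mean 114.7), a log2 ratio of 1.19. The cells overlapped, and so did the set means (50.3 to 557.4 CPM against 0 to 318.6 CPM). The ratio was 5.24 in batch 2, where 5 *Slc26a4*+/+ cells had a mean of 2.81 CPM, and 1.84 in batch 4. It was 0.89 to 1.53 when a collection set was left out, with the lowest value without a *Slc26a4*-/- set. In pendrin cells the same gene went the other way, with a log2 ratio of -0.65 (-1.59 in batch 2 and 1.04 in batch 4).

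*Dmxl1* was the gene that was lower, with a median of 3.03 CPM in *Slc26a4*-/- and 14.6 CPM in *Slc26a4*+/+ IMC-like cells and means of 42.5 and 106.6 CPM (log2 ratio -1.31, -0.85 in batch 2 and -2.10 in batch 4). *Atp6v1h* stood just under 2-fold at 0.99 (295.1 against 148.02 CPM, medians 263.6 and 60.5), with 1.10 in batch 2 and 0.45 in batch 4. Among the rest, *Atp6v0a2* was at 0.56 and *Atp6ap1* at 0.33, and at the other end were *Oxr1* at -0.95, *Atp6v1d* at -0.85 and *Atp6v0e* at -0.84. The set means of the genotypes overlapped for all 25 genes (all set means of *Slc26a4*-/- were above those of *Slc26a4*+/+ for 0.0845% of all genes and below for 0.0423%).

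**Figure D5:**
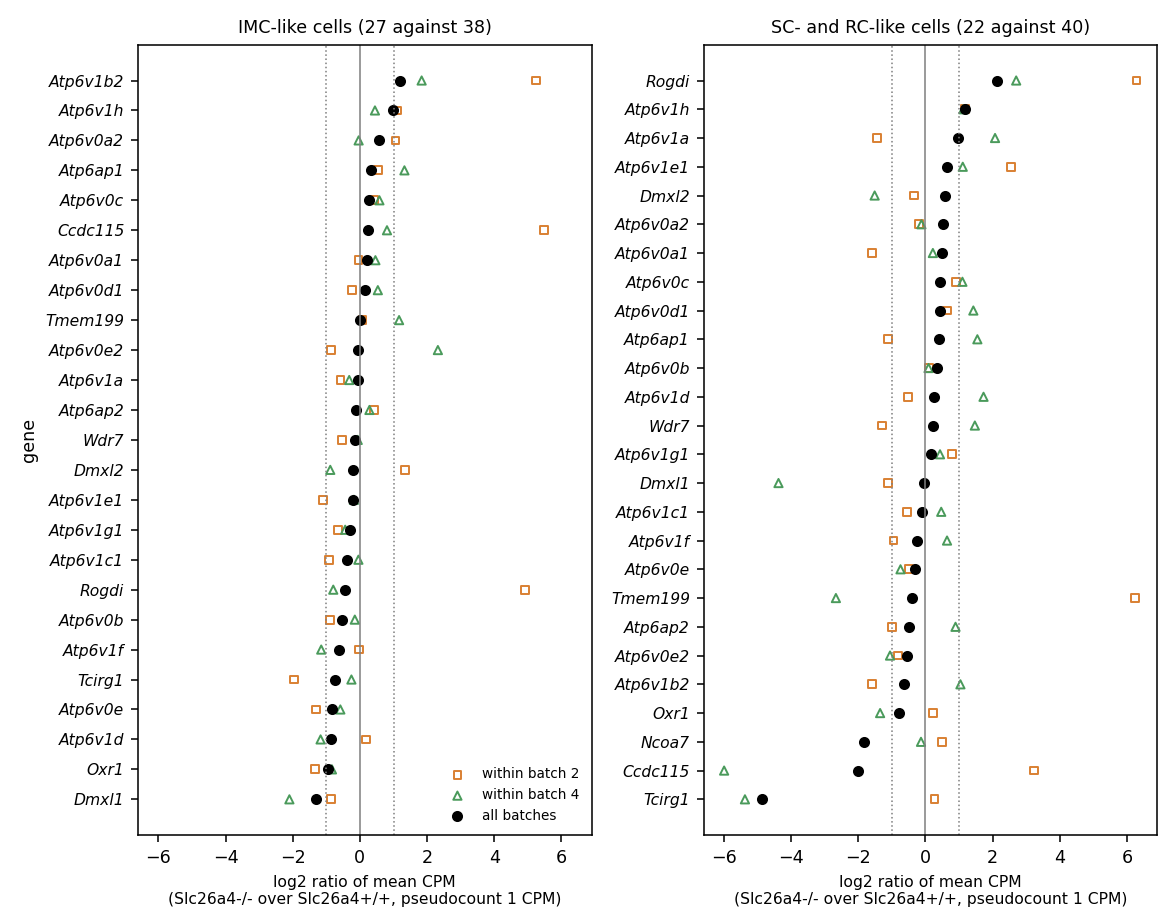
Log2 ratio of mean CPM (pseudocount 1 CPM) of *Slc26a4*-/- over *Slc26a4*+/+ cells (horizontal axis) for each V-ATPase gene with 10 CPM or more in either genotype (vertical axis), in IMC-like cells (left, 27 against 38 cells) and pendrin cells (right, 22 against 40 cells). Black points are all batches together, squares batch 2 and triangles batch 4, and dotted lines mark 2-fold. In IMC-like cells only *Atp6v1b2* and *Dmxl1* have a black point beyond the lines. In pendrin cells the squares and triangles often lie on opposite sides of 0.

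In pendrin cells the shares of pump genes past 2-fold were also under the background, and batches 2 and 4 often differed in sign. Of 26 genes, 2 were 2-fold or more higher in the 22 *Slc26a4*-/- cells than in the 40 *Slc26a4*+/+ cells (15.1% of all genes were) and 3 were lower (22.5%), with a median log2 ratio of 0.18 against -0.14 over all genes. Without the highest cell of each gene, 1 was higher (13.1%) and 3 lower (24.3%). The sign was the same in batches 2 and 4 for 12 of 23 genes, against 51.4% of all genes, and batch 2 held 3 *Slc26a4*+/+ pendrin cells. The batches also compared different mixtures of types. In batch 4 the 7 *Slc26a4*-/- cells were all RC-like, against 3 SC-like and 6 RC-like *Slc26a4*+/+ cells. In batch 2 there were 8 SC-like and 7 RC-like *Slc26a4*-/- cells against 2 and 1. The part of this make-up in the values by batch was not tested. At 2-fold or more within both batches, 3 genes were higher (*Rogdi*, *Atp6v1h* and *Atp6v1e1*, background 15%) and 1 lower (*Dmxl1*, background 6.19%), although the ratio of *Dmxl1* over all batches was -0.05. *Rogdi* was higher, with a median of 29.8 CPM against 0 and a mean of 100.2 against 22.3 CPM (log2 ratio 2.12, 6.28 in batch 2 and 2.70 in batch 4). By type, its mean was 133.4 against 21.7 CPM in RC-like cells, with medians of 124.7 and 1.01 CPM. In SC-like cells the means were 42.2 and 22.8 CPM, but both medians were 0. There, 3 of 8 and 6 of 23 cells had 10 CPM or more, with highest cells of 151.4 and 145.7 CPM. Over both types the cells overlapped, with highest values of 373.7 and 168.4 CPM. The set means of the genotypes overlapped for all 26 pump genes (all set means of *Slc26a4*-/- were above those of *Slc26a4*+/+ for 0.0096% of all genes and below for 0%).

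*Atp6v1h* was higher at 447 against 197.1 CPM (medians 204.7 and 75.2, highest cells 2751 and 1202), a log2 ratio of 1.18 with 1.18 in batch 2 and 1.13 in batch 4. In SC-like cells alone it was 665 against 184.05 CPM and in RC-like cells 323 against 214.8 CPM. The value rested in part on a few *Slc26a4*-/- cells, since it was 0.97 without the highest cells and 0.24 without a single *Slc26a4*-/- collection set of batch 2. The ratio was above 0 in both cell groups and both batches, although the batches of pendrin cells differed in their mixture of types. It was -0.06 in *Slc26a4*+/- IMC-like cells.

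The 3 lower genes did not hold across batches. *Tcirg1* had means of 1.98 CPM in *Slc26a4*-/- pendrin cells (highest cell 13.1) and 85.2 CPM in *Slc26a4*+/+ cells (highest cell 1520), with medians of 0 and 0.494 CPM. Its log2 ratio was -4.85, with -5.37 in batch 4 but 0.27 in batch 2, where both genotypes were under 1 CPM. *Ccdc115* had a log2 ratio of -2.02 (5.77 against 26.4 CPM), with -5.99 in batch 4 and 3.24 in batch 2. *Ncoa7* had a log2 ratio of -1.83 (2.60 against 11.8 CPM), with -0.13 in batch 4 and 0.48 in batch 2. All 3 had a median of under 0.5 CPM in both genotypes, so their means were set by a minority of cells. *Atp6v1a* was at 0.95, with -1.45 in batch 2 and 2.07 in batch 4, and without the *Slc26a4*-/- set of highest level it was 0.06. Nearer to 0 were *Atp6v1e1* at 0.63, *Dmxl2* at 0.59, *Oxr1* at -0.80 and *Atp6v0e2* at -0.54.

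*Slc26a4*+/- cells all had the fourth run date, and were compared within it in IMC-like cells (20 against 7 *Slc26a4*+/+ cells). Of 26 genes, 3 were 2-fold or more higher (24.4% of all genes were) and 0 lower (19.2%), with a median log2 ratio of 0.06 against 0.01 over all genes. Without the highest cells, 5 were higher (35.6%) and 1 lower (13.3%). *Atp6v0e2* ran from 0.397 through 228.3 to 633.1 CPM in *Slc26a4*+/- cells (mean 237.6) and from 0 through 1.64 to 199.04 CPM in *Slc26a4*+/+ cells (mean 42.6), a log2 ratio of 2.45. Most *Slc26a4*+/- cells lay above the highest of the 7 *Slc26a4*+/+ cells. Against *Slc26a4*+/+ IMC-like cells of all batches, whose mean was 175.2 CPM, the ratio was 0.44, so the 7 cells of batch 4 were low among their own genotype. In batch 4, *Slc26a4*-/- IMC-like cells also stood above them (216.8 CPM, log2 ratio 2.32), a comparison that shares those 7 cells.

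*Atp6v1g2* (11.4 against 3.03 CPM, log2 ratio 1.62) and *Ccdc115* (51.5 against 19.7 CPM, 1.34) had medians of 0 in both genotypes. Under 2-fold, the highest ratios were those of *Atp6ap1* (0.88), *Tmem199* (0.65) and *Wdr7* (0.34), and the lowest those of *Dmxl1* (-0.90), *Atp6v1e1* (-0.89) and *Atp6v1d* (-0.77). For *Atp6v1e1* the 4 set means of *Slc26a4*+/- (216.6 to 300.7 CPM) lay below the 3 of *Slc26a4*+/+ (317.1 to 518.8 CPM), and for *Atp6v1d* likewise (97.7 to 244.7 against 347.6 to 492.2 CPM). All set means of *Slc26a4*+/- lay below those of *Slc26a4*+/+ for these 2 of 26 pump genes and for 2.96% of all genes, and above them for 0 of 26 and 2.78%. A count of 2 genes is too small to set the pump apart from this background. Over *Slc26a4*+/+ cells of all batches these 2 ratios were -0.46 and 0.01. The summed IMC markers differed here too, with medians of 82297.8 CPM in *Slc26a4*+/- and 48726.5 CPM in *Slc26a4*+/+ cells of batch 4, and their part was not tested.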

How the data were processed

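Single cells of the stria vascularis were profiled with Smart-Seq2. The authors quantified the reads with kallisto on the mouse build GRCm38 (mm10). The kallisto version and annotation release are not given in the sources used here. The authors deposited estimated counts per gene, as whole numbers, in a table of 47752 genes, of whose columns 17 were not of a listed sample and were not used. Per cell, the authors deposited TPM values of 98492 transcripts, which were summed per gene with GENCODE M21 names. The 1288 transcripts not in it held a median of 0.635% of a cell's counts.

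Estimated counts were scaled to CPM on each cell's total, and ratios are differences of log2(mean CPM + 1), which understate those of low genes. All 281 cells were clustered with Seurat 5.3.0 in R 4.3.3 (scale factor 10000, 2000 variable genes, 10 components, resolution 0.8), and 176 fell in named clusters. A cluster was named where 80% of its cells had their highest marker score for that type, with 3 or more markers detected. This scoring rule was chosen after seeing the data. A marker score for each cell alone put 172 of the 176 in the same type. The pump genes played no part in the clustering, since the 2 of them among the variable genes were left out. No doublet caller was run, since cells were picked singly, and no cell was removed from the main values.

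Expressed means a mean of 10 CPM or more, detected an estimated count of 1 or more, and a difference is counted from 2-fold. Shares of cells have exact (Clopper-Pearson) 95% intervals, and a count of 0 is set against 3 counts. No tests were run, as no cell was tied to an animal. Depth sets the precision: 3 counts over the group stand for 0.0454 CPM in IMC-like and 0.140 CPM in MC-like *Slc26a4*+/+ cells. The ratio code was tested on simulated data. The genes described and all lists were chosen with earlier results of these data known. Every isoform of subunits a, d, e, B, C, E and G is given in full, with, per cell type, the 3 genes furthest above the next type, and, per genotype comparison, the genes past 2-fold and the 3 highest and lowest of the rest. Python 3.11.15 with pandas 2.3.3, numpy 2.4.6, scipy 1.17.1 and matplotlib 3.10.9 did the rest.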

Additional observations from a re-analysis of the deposited data

Results flagged for a closer look

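Collection sets far from the others of their group were looked for in 47 groups of 4 to 8 sets, with the gap to the nearest set divided by the whole range. Such a gap was found in 10. For independent, normally distributed values chance gives it in about 1 in 20 groups, but these set means are skewed, hold many zeros and come from the same sets for each gene, so the 10 cannot be read against that rate. Among the 8 sets of MC-like *Slc26a4*+/+ cells, the highest mean stood apart for *Atp6v1d* (1528 CPM, the next 532.3), *Atp6v1g1* (1194 CPM, the next 591.6), *Dmxl2* (263.5 CPM, the next 94.99), *Tmem199* (145.2 CPM, the next 66.6) and *Atp6v1g3* (2.445 CPM, the next 0.141). Among the 7 sets of *Slc26a4*-/- pendrin cells it did so for *Atp6v1a* (694.8 CPM, the next 190.5), *Ccdc115* (15.78 CPM, the next 0.180), *Ncoa7* (8.868 CPM, the next 1.45) and *Tcirg1* (5.29 CPM, the next 2.19). *Atp6v1d* was low in 1 of the 4 sets of *Slc26a4*+/- IMC-like cells, with 97.72 CPM against 231.5 CPM in the next.

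For 3 subunits the log2 ratio of *Slc26a4*-/- to *Slc26a4*+/+ had opposite signs in IMC-like and pendrin cells within both batches 2 and 4. The ratio in IMC-like cells less that in pendrin cells was -0.8813 for *Atp6v0b*, -0.8368 for *Atp6v1e1* and -0.4584 for *Atp6v1g1*, all 3 below 0 in IMC-like cells and above 0 in pendrin cells. The share of all genes that meet this rule was not worked out, so the 3 genes are not a result about the pump. Over all genes, the signs of batches 2 and 4 were alike for 54.9% in IMC-like and 51.4% in pendrin cells. The difference was not tested.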

How the results depend on the processing

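Of the counts and medians followed over other settings, 68 moved by more than 1.5 times or the spread. Of the values of the 47 followed genes and comparisons, 22 moved by more than the spread and 6 reversed, which means that a difference of 2-fold or more changed sign, while 1023 did neither. Of 666 values whose reported difference was under 2-fold, 25 had the other sign. Keeping only the cells with 100000 or more counts, 2500 or more genes and under 3% mitochondrial counts moved none of the values followed. The number of genes 2-fold or more above the next type was 3 (IMC-like), 0 (SC-like), 1 (RC-like) and 3 (MC-like cells). It became 2 in RC-like cells at a level of 5 CPM and 0 at 50 CPM, 1 in SC-like cells in TPM, and 1 in MC-like cells over all genotypes. With cells typed by marker score alone it was 2 (SC-like), 3 (RC-like) and 1 (MC-like cells). Without the highest cell of each gene it was 5 in IMC-like and 0 in RC-like cells. It was 2 in RC-like cells without batch 1, without batch 2 and without batch 4, and without batch 3 it was 1 (IMC-like), 3 (SC-like), 2 (RC-like) and 5 (MC-like cells). *Atp6v1g3* reversed, to -0.72 without batch 1 and -0.48 without the highest cell.

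In IMC-like cells, *Slc26a4*-/- against *Slc26a4*+/+ gave 1 gene higher and 1 lower. The counts were 6 and 5 in batch 2, 4 and 3 in batch 4, 3 and 3 for the mean of these batches, and 2 and 3 both in TPM and with collection sets weighted equally. Higher genes numbered 2 without the 100 highest genes in the totals and 2 by marker score, and lower genes 2 without the highest cells and 2 with no filter on level. Leaving out a set gave 1 to 2 higher and 1 to 3 lower. In pendrin cells the counts of 2 and 3 became 4 and 6 in batch 2 and 10 and 7 in batch 4. Higher genes numbered 1 without the highest cells, 4 by marker score and 6 for the mean of batches, and lower genes 6 with no filter. Leaving out a set gave 2 to 4 and 2 to 5. In batch 2, *Tcirg1* (0.27), *Ncoa7* (0.48) and *Ccdc115* (3.24) reversed, and *Ncoa7* was 0.17 for the mean of batches. The share of all genes past 2-fold within a single batch is not given here, for IMC-like or pendrin cells. The counts by batch are therefore not a result about the pump.

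*Slc26a4*+/- against *Slc26a4*+/+ gave 3 and 0. It gave 0 and 1 against *Slc26a4*+/+ cells of all batches and 5 and 1 without the highest cells. The lower genes numbered 1 in TPM, 1 with equal sets and 2 by marker score. Leaving out a set gave 2 to 5 and 0 to 1. The causes of these moves were not tested. No paired analysis was possible because the numbers in the titles name single cells and are not shared between groups.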

Other observations

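Genes of the compartments in which the pump works were looked at next. Of 15 lysosomal and counter-ion genes, all 15 reached 10 CPM in a named type (11384 of all 47752 genes did). Of these, 7 were highest in IMC-like (24.4% of all expressed genes were), 4 in RC-like (29.1%), 2 in SC-like (26.7%) and 2 in MC-like cells (19.8%). At 2-fold or more above the next type stood 1 each in IMC-like (background 8.02%), RC-like (11.6%) and MC-like cells (6.16%) and 0 in SC-like cells (8.48%). With so few genes these counts are not a result about the lysosome. *Clcn6*, an endosomal chloride-proton exchanger, had means of 204.8 CPM in IMC-like cells and 16.7 to 49.3 CPM in the other named types. *Clcn5*, its relative of early endosomes, was at 0.207 CPM in IMC-like cells and at 32.6 CPM in SC-like, 58.4 CPM in MC-like and 72.8 CPM in RC-like cells. The *Crhbp* cluster was near IMC-like cells for both, with 181.1 CPM of *Clcn6* and 0.397 CPM of *Clcn5*. *Clcn7*, the exchanger of lysosomes, was at 365 CPM in IMC-like and 393 CPM in MC-like cells and at 47.9 CPM in RC-like cells. *Slc38a9*, an arginine sensor of the lysosome, had its highest mean in RC-like cells (102.7 CPM, the next 23.4 CPM).

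Of 7 further assembly and regulation genes measured, 5 reached 10 CPM (11384 of all 47752 genes did). *Tbc1d24*, a TLDc protein known from deafness in people, averaged 220 CPM in MC-like cells and 3.78 to 21.1 CPM in the other named types. Among the named types *Vma21*, an assembly chaperone, was highest in IMC-like cells (81 CPM, the next 59.5 CPM). It was at 181.8 CPM in the *Crhbp* cluster. Of 11 genes typical of intercalated cells, 1 reached 10 CPM, against the same share of all genes. It was the carbonic anhydrase *Car2*, with 1047 CPM in IMC-like cells and 8.87 to 163.5 CPM in the other named types. *Foxi1*, *Foxi2*, *Foxi3*, *Rhcg*, *Rhbg*, *Dmrt2*, *Slc4a9* and *Aqp6* had 0 counts in the named types of *Slc26a4*+/+ mice.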
